A study of Mus musculus with 8 samples.

Results

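Neat1 and Malat1 are long noncoding RNAs that stay in the nucleus and lie next to each other on mouse chromosome 19. Their N6-methyladenosine (m6A) peaks are described here in left ventricle of C57BL/6 mice of the wild-type genotype, 1 week after surgery. The members were all rows of the authors' 2 deposited peak tables that carry the gene ID of Neat1 (66961) or Malat1 (72289), together with rows without an ID inside the stretch of chromosome 19 that holds both genes, on the mouse build mm10. This gave 17 of 581 listed rows, 5 of 116 in the table of infarcted (MI) against sham-operated hearts and 12 of 465 in the table of aavFto against aavgnp hearts. Rows that overlapped, on the same strand or on opposite strands, were taken as 1 measurement, which left 2 measurements in the first table and 7 in the second.

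Malat1 gathers at nuclear speckles, the bodies that store splicing factors, and is among the most abundant nuclear RNAs of mammalian cells. Neat1 is the scaffold around which paraspeckle proteins assemble, and it is made in a short polyadenylated and a long form that begin at the same start. m6A is a methyl mark on adenosines within RNA, set by the METTL3 and METTL14 methyltransferase and removed by FTO and ALKBH5. In human cells, m6A in MALAT1 is known to open a hairpin and thereby expose a binding site of the protein HNRNPC.

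MeRIP-seq pulls down RNA fragments with an antibody against m6A and sequences them beside fragments that were not pulled down, called the input. The 8 libraries came from 4 groups, with 1 MeRIP and 1 input library each: MI hearts given aavFto, MI hearts given aavgnp, MI hearts with no vector named, and sham-operated hearts. The labels expand neither vector name and do not give the age of the mice, how many animals stood behind a library, or which cells the vectors reached. The aavFto group is taken to have received Fto and aavgnp to be its comparison group. Because no group had a second library, no difference below has a replicate check, and the p-values and false discovery rates (FDR) are the authors' own comparisons of libraries. The depth of the libraries is unknown. Of 8 heart muscle genes (Actc1, Atp2a2, Mybpc3, Myh6, Myl2, Pln, Tnni3 and Tnnt2), 8 had a listed peak in the aavFto table and 3 in the MI table.

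Each listed peak came with an enrichment p and a fold enrichment of MeRIP over input, and with a log2 change between the groups. The sign of that change is not stated in the tables. It was read as MI over sham and as aavFto over aavgnp, from the order of the names; read the other way, all directions given for a table would be reversed. The transcript level of neither RNA was analysed here, so a change in methylation cannot be told apart from other differences between the libraries. In whole ventricle, fewer cells of a type and less RNA per cell cannot be told apart either.

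Malat1 (chromosome 19, 5795690 to 5802672, a gene of 6983 nt) had 3 peaks, all in the aavFto table and all on the minus strand, which is the gene's own. They lay in the 5′ part of the RNA, between 631 and 2159 nt from its start. From the 5′ end, the authors' deposited table gave log2 changes of -0.61, 0.81 and -0.78. The middle peak thus had a positive change and the peaks on either side of it a negative one, and none of the 3 passed an FDR of 0.05.

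The middle Malat1 peak, at 1260 to 1740 nt from the start (5800933 to 5801413), was the strongest of all members. In the authors' deposited table it had an enrichment log10 p of -15.7, rank 26 of 465, and a fold enrichment of 44.7. With 481 nt it was also the longest member, against a median of 181 nt over all rows of that table. Its differential p of 0.0851 in the authors' deposited table was the smallest among the members, and its FDR was 0.713. A differential p under 0.10 was held by 35 of the 465 rows, or 7.53%.

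The Malat1 peak nearest to the start, at 631 to 811 nt (5801862 to 5802042), combined a clear enrichment p with a low fold. The authors' deposited table gave it a log10 p of -8.51, rank 84 of 465, and a fold enrichment of 20.0, rank 446. The 6 other rows whose enrichment log10 p lay within 0.1 of it all had a higher fold, up to 94.5 in the authors' deposited table. Its differential p was 0.32 and its FDR 0.713 in the authors' deposited table. The Malat1 peak farthest from the start, at 1920 to 2159 nt (5800514 to 5800753), was weak, with an enrichment log10 p of -4.06, rank 411, a fold of 49.1 and a differential p of 0.601 in the authors' deposited table.

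**Figure D1:**
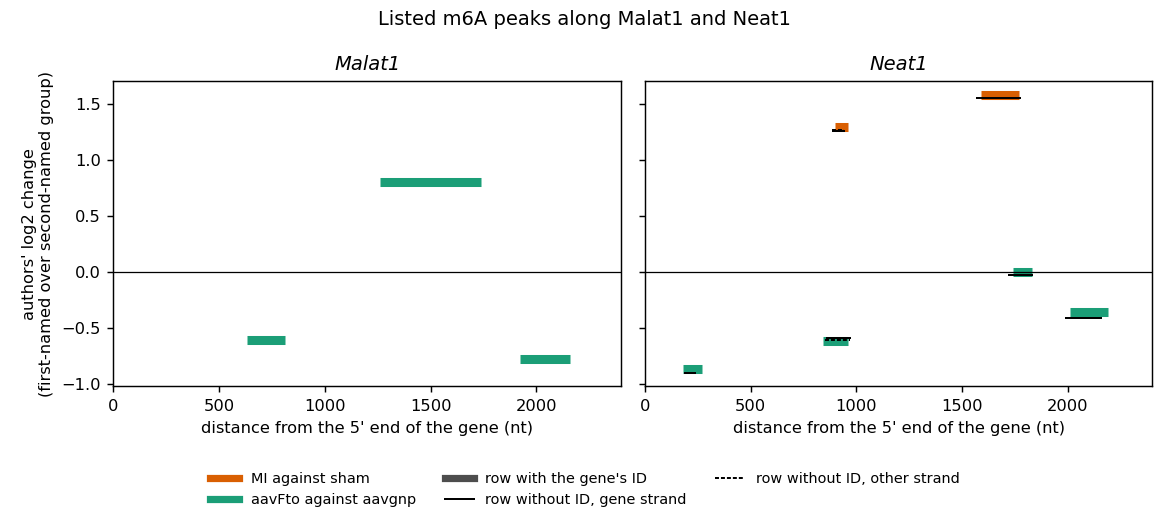
Listed peaks along Malat1 (left) and Neat1 (right). The x axis is the distance from the 5′ end in nt and the y axis the authors' log2 change; orange bars are MI against sham, green bars aavFto against aavgnp, thick bars rows with the gene's ID, and thin black lines rows without an ID, broken where they lie on the other strand. Neat1 has 2 orange sites above 0, the 4 green Neat1 sites lie at about 0 or below, and the middle Malat1 peak stands alone at 0.81.

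Neat1 (chromosome 19, 5824708 to 5845480, a gene span of 20773 nt with 2 RefSeq transcripts) had peaks in both tables. All 14 of its rows lay in the first 2189 nt, so they fall close to the start that the short and the long form have in common. Which form the reads came from was not analysed here. All 17 member rows, from 9 sites, consisted of 1 block with no gap. Over all rows, 57.8% in the MI table and 52.0% in the aavFto table did so. Blocks follow exons and the exon structure of the genes was not compared, so this is not read as a trait of the peaks.

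In MI against sham hearts, Neat1 had 2 sites and the change was positive at both. The site at 1589 to 1769 nt from the start (5843712 to 5843892) stood at a log2 change of 1.58 in the authors' deposited table, with a differential p of 0.439 and an FDR of 0.741. For the site at 900 to 960 nt (5844521 to 5844581) the authors' deposited table gave 1.29, with a differential p of 0.498 and the same FDR of 0.741. Neither passed an FDR of 0.05, which 14.7% of the rows of this table did, and neither had an unadjusted p under 0.05, which 25.9% had.

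A positive sign does not set Neat1 apart after MI, since 84.5% of the rows were positive. The median of the 2 sites was 1.44 on the log2 scale, against 1.92 over all 116 rows. The table listed no change smaller than 1.01 in size, and by size these changes ranked 20 and 44 of 116, counted from the smallest. This FDR of 0.741 was also the most common one, at 66 of the 116 rows of the authors' deposited table. Malat1 had no row there, and because the listed changes all exceed 1 in size, this says nothing of its methylation in MI or sham hearts.

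By enrichment p the Neat1 peaks of MI against sham ranked 56 and 107 of 116, so the first stood near the middle of the table and the second among the weakest. At 1589 to 1769 nt the authors' deposited table gave an enrichment log10 p of -5.66 and a fold of 80.1, and at 900 to 960 nt a log10 p of -4.25 and a fold of 62.6. The median of that table was -5.48 for the log10 p and 65.7 for the fold. Next to the stronger Neat1 peak by enrichment p stood Cox7a1, a subunit of cytochrome c oxidase, and Casq2, the calcium store protein calsequestrin. Their changes in the authors' deposited table were -1.33 and 3.36, so peaks of like strength differed widely in size and sign.

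**Figure D2:**
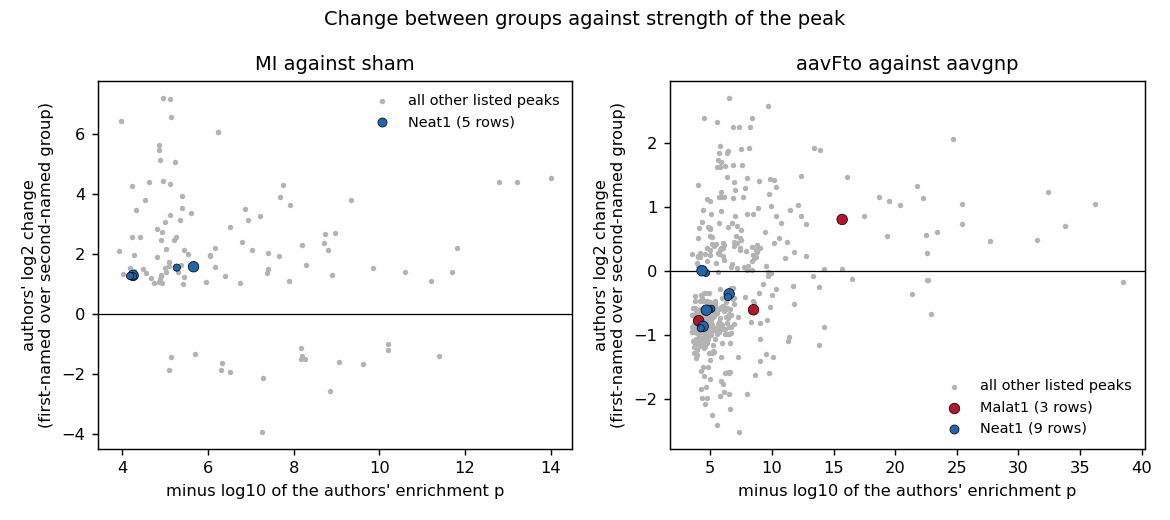
Authors' log2 change (y axis) against minus log10 of the authors' enrichment p (x axis) for every listed peak, with MI against sham on the left and aavFto against aavgnp on the right; red is Malat1, blue Neat1, grey all others, and larger points carry the gene's ID. On the left the Neat1 points lie between 1.26 and 1.58, and on the right the Malat1 peak at a log10 p of -15.7 is the member above 0 that stands clear of the zero line.

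In aavFto against aavgnp hearts, Neat1 had 4 sites, of which 3 were negative and 1 lay at zero. From the 5′ end, the authors' deposited table gave log2 changes of -0.87, -0.61, 0.0041 and -0.36. The first, at 181 to 271 nt (5845210 to 5845300), was the lowest of all member sites, with a differential p of 0.585 in the authors' deposited table. At the site of 1739 to 1829 nt (5843652 to 5843742) the change of 0.0041 was the smallest in size of all 465 rows of the authors' deposited table. The remaining sites lay at 840 to 960 nt (5844521 to 5844641) and at 2009 to 2189 nt (5843292 to 5843472), with differential p-values of 0.635 and 0.685 in the authors' deposited table.

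Of the 7 sites of both RNAs in this table, 0 passed an FDR of 0.05, and 0 had an unadjusted p under 0.05. Over all rows 1.72% passed that FDR and 4.3% that p. The FDR was 0.716 at the Neat1 site of 1739 to 1829 nt and 0.713 at the other 6, and 443 of the 465 rows of the authors' deposited table had the value 0.713. The sites were positive in 2 cases and negative in 5, and 32.7% of all rows were positive. Their median change of -0.61 on the log2 scale lay at the median of the table, also -0.61. No member row reached a change of 1 in size, which 28.2% of the rows did.

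By enrichment, the strongest Neat1 site of aavFto against aavgnp was that at 2009 to 2189 nt. It had a log10 p of -6.53, rank 149, and a fold of 69.5 in the authors' deposited table. The other 3 sites had log10 p between -4.68 and -4.33, ranks 311 to 368 of 465 in the authors' deposited table. When the rows were put in order of enrichment p and cut into 5 sets of 93, the share of positive rows was 63.4% in the strongest set and 11.8% in each of the weakest 2. In the strongest set stood 2 Malat1 sites, 1 positive and 1 negative, and in the weakest 2 sets stood 4 sites of both RNAs, 1 of them positive, the Neat1 site at 0.0041.

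**Figure D3:**
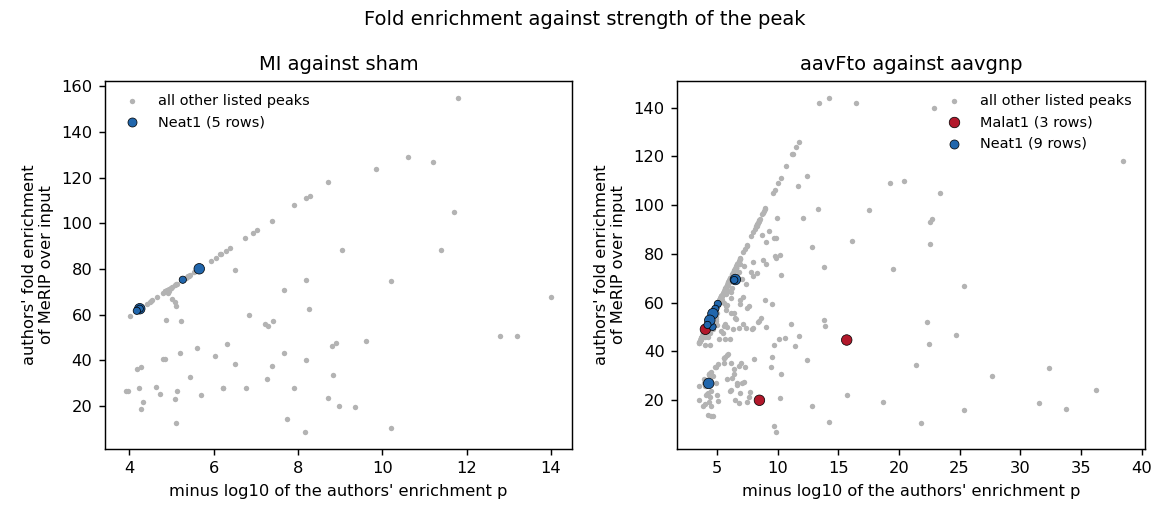
Authors' fold enrichment of MeRIP over input (y axis) against minus log10 of the authors' enrichment p (x axis), with MI against sham on the left and aavFto against aavgnp on the right, coloured as in the plot of change against enrichment. All 5 Neat1 rows of the left panel, from 2 sites, lie on the upper edge of the points. In the right panel the Malat1 peak with a fold of 20.0 and the Neat1 rows with folds of 26.9, 50.1, 69.3 and 69.5 lie below that edge.

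Many peaks lay along an upper edge in the plot of fold against enrichment. A row was counted on the edge when its fold was at least 95% of the highest fold among rows of like p. Those were rows with a log10 p within 0.1 of its own, the row itself included, and at least 3 were required. A row with the highest fold of its own set was thus on the edge by definition. In MI against sham, 5 of 5 Neat1 rows, which are 2 sites, were on the edge, against 54.3% of 94 rows. For the 2 Neat1 rows with an ID the highest fold was their own, 80.1 among 3 rows and 62.6 among 10. Rows of 1 site overlap, so these counts are of rows and not of separate measurements. With aavFto, 6 of 11 member rows were on it, against 65.6% of 421 rows, and the middle Malat1 peak had too few rows of like p to be counted. The read counts behind these values were not analysed here.

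Overlapping rows of 1 site gave nearly the same change. Such rows cover much of the same stretch in the same libraries, so their likeness is no repeat of the measurement. The Neat1 site at 840 to 960 nt was listed 3 times with aavFto, and the authors' deposited table gave -0.61 for the row with the ID, -0.59 for a row without an ID on the gene's strand and -0.61 for a row on the other strand. After MI the site at 900 to 960 nt was also listed 3 times, at 1.29, 1.26 and, on the other strand, 1.27 in the authors' deposited table. The widest gap within a site was 0.05 on the log2 scale, at 2009 to 2189 nt. At 1739 to 1829 nt the sign differed between rows, with 0.0041 and a fold of 26.9 for the row with the ID and -0.0303 and a fold of 50.1 for the longer row without an ID in the authors' deposited table. Over both tables, 27 of the 581 rows had no ID, and 8 of these 27 lay within Neat1 and none within Malat1. Such rows became members by their place in the locus, and the others were not placed in any gene. The count is therefore not read as a trait of Neat1.

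The 2 tables share no library, and 2 Neat1 sites were listed in both. At the site near 900 nt the peaks coincided over 61 nt, the whole of the shorter one. There the authors' deposited tables gave -0.61 for aavFto over aavgnp and 1.29 for MI over sham. At the other site the peaks overlapped by 31 nt, 34.1% of the shorter, with 0.0041 for aavFto over aavgnp and 1.58 for MI over sham in the authors' deposited tables. Neither pair of values was tested for a difference, and no value in either pair passed the FDR. Over all rows, 84.5% were positive after MI and 32.7% with aavFto, and no listed change after MI was smaller than 1.01 in size. Opposite signs at a shared site are therefore not read as a reversal.

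Measured along the long gene span, the Neat1 peaks lay nearer to the 5′ end than most listed rows, a description with no test. Over all rows with an ID, the centre of the peak lay at a median of 88.4% of the gene span from the 5′ end in the MI table and 83.0% in the aavFto table, introns included. Centres in the first 10% of the span were found in 3 of 105 rows after MI, 2 of them in Neat1, and in 17 of 449 rows with aavFto, 3 of them in Neat1. The other Neat1 site with aavFto had its centre at 10.1%, and the Malat1 centres lay at 10.3%, 21.5% and 29.2%. The Neat1 shares are of the long span, and those of its short form are higher. The RNA was selected for poly(A), which the short form carries, and shares along that form were not computed. How far the low shares come from the length of the span was not tested.

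**Figure D4:**
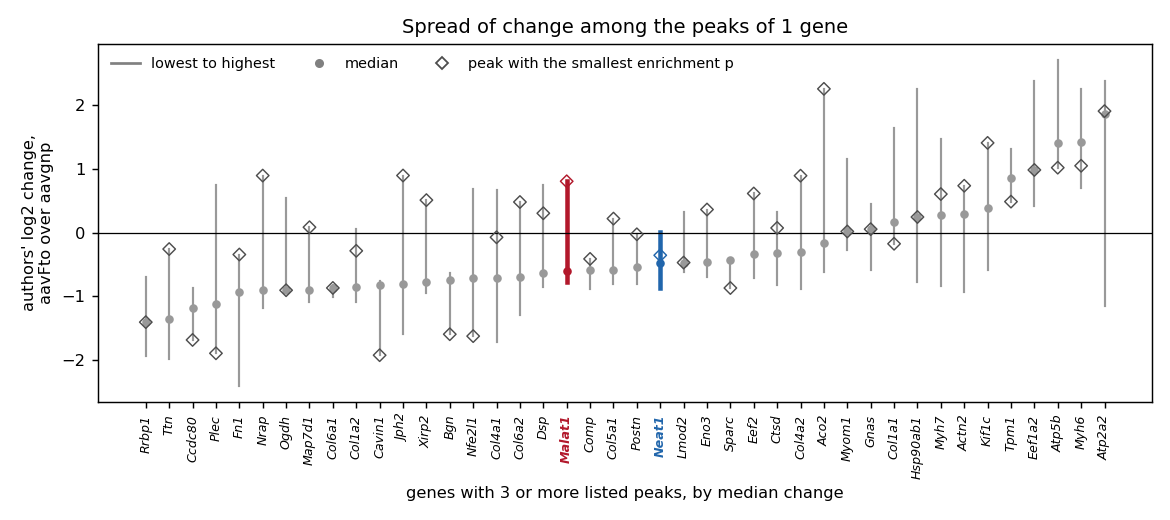
Authors' log2 change of aavFto over aavgnp (y axis) for the 42 genes with at least 3 listed peaks (x axis, ordered by median). Lines run from the lowest to the highest peak of a gene, points are medians and diamonds the peak with the smallest enrichment p; Malat1 (red) spans -0.78 to 0.81 and Neat1 (blue) -0.87 to 0.0041.

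Mixed signs within a gene were usual. Of the 42 genes with at least 3 rows with an ID in the aavFto table, 28 had changes of both signs, 4 were positive and 10 negative throughout. The range over the Malat1 peaks was 1.58 on the log2 scale and that over the Neat1 sites 0.87, against a median range of 1.51 over the 42 genes. Malat1 was 1 of 8 genes in which the peak with the smallest enrichment p was the only positive one. The others were Col5a1, Col6a2, Eno3, Jph2, Map7d1, Nrap and Xirp2. Neat1 was not among them, as its peak with the smallest enrichment p stood at -0.36.

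The other long noncoding RNAs listed were Mhrt, A930016O22Rik and Gm12992. Among its 77 genes the MI table held 2 long noncoding RNAs, Neat1 and Mhrt, a noncoding transcript opposite to Myh7. Among its 271 genes the aavFto table held 5, with 11 rows, 7 of them the Malat1 and Neat1 rows with an ID, and 0 of the 11 passed the FDR, which 1.72% of all rows did. Mhrt had the same enrichment log10 p as the middle Malat1 peak, -15.7, with a lower fold of 22.0 and a change of 0.03 in the authors' deposited table. After MI the authors' deposited table gave Mhrt a change of 2.13 (FDR 0.0363), while the FDR of both Neat1 sites was 0.741. The 2 A930016O22Rik peaks stood at 0.55 and -0.38 and the Gm12992 peak at -0.63 in the authors' deposited table. Next below the middle Malat1 peak by enrichment p was the microRNA gene Mir6236, with a change of 0.04 in the authors' deposited table.

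Genes whose products work with these RNAs were looked up in lists, and since the tables held no more than 77 genes after MI and 271 with aavFto, the low counts that follow are not read as a result about these lists. Of 18 paraspeckle protein genes, among them Sfpq and Nono, 0 had a listed peak in either table. Of 18 genes of nuclear speckles and splicing, 0 were listed after MI and 1 with aavFto, the splicing regulator Rbm25, for which the authors' deposited table gave 0.16 (FDR 0.716). Of 22 genes of the m6A machinery, 0 were listed after MI and 1 with aavFto, the m6A reader Prrc2a, for which the authors' deposited table gave -0.84 (FDR 0.713). Among the 15 other genes within 100 kb of the locus window, 0 were listed after MI and 1 with aavFto, Ehbp1l1, placed at -0.65 (FDR 0.713) by the authors' deposited table.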

How the data were processed

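MeRIP and input libraries of 4 groups of mouse left ventricle were read on an Illumina HiSeq; per the labels' protocols the RNA was selected for poly(A) before the pulldown. The submitters' processing notes name STAR 2.5.3a and the build mm10. For the peak caller, its thresholds and the library scaling, no name or value was given in the sources used here. Per the file headers, the authors deposited an enrichment p-value, its log10 p and log10 FDR, a fold enrichment (a linear ratio), and a log2 change with the log10 of its differential p and FDR. Log10 values were turned into p and FDR with pandas 2.3.3 under Python 3.11.15, and no test was run. A call is an FDR under 0.05.

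Gene IDs were matched in a RefSeq table of GRCm38.p6, the assembly of mm10. Overlapping rows of 1 bp or more on either strand were merged, and the row with the ID gave the value. The merging was run on simulated rows without strand, in which sites stood apart and rows of 1 site always overlapped. That checks the code only. Coordinates are 1-based. Members and lists were chosen with earlier results of these data known. Named genes were the members, listed genes of those lists and neighbours, and the 2 genes next to each table's strongest member by enrichment p. The 8 heart muscle genes, named as markers of the tissue, were in none of those lists. The other listed long noncoding RNAs and the genes named beside Malat1 among those with several peaks were chosen after their values were seen. Of the 21 genes in the list of long noncoding RNAs, 20 were in the gene table and Mhrt alone was listed. Alternatives were counting each row, rows with an ID, other FDRs, a minimum enrichment, other summaries and the overlap rule. Peak sequences were not used here.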

Additional observations from a re-analysis of the deposited data

How the results depend on the processing

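The count of 0 sites past the FDR held in both tables with every row counted, with an FDR of 0.01 or 0.10, and with an enrichment FDR of at most 0.01. The member rows had FDRs from 0.713 to 0.741, so none of these settings could have changed that count. Counting every row gave 5 rows after MI, 5 of them positive, in place of 2 and 2, and 12 with aavFto in place of 7. The enrichment limit left 1 site after MI, positive. The strongest site alone had a log2 change of 1.58 after MI in place of the median of 1.44, and the widest row of each site gave 1.42. With aavFto the median of -0.61 became a mean of -0.34, and the strongest site alone gave 0.81, a positive value, because the middle Malat1 peak is the strongest. An overlap of at least 50% of the shorter peak left 1 shared site in place of 2. With the merged span of each site, a choice made after seeing the data like that of the widest row, 2 were shared. Of 30 alternatives 20 left the value the same, a count being so when it stayed within 1.5 times. Among those 20 are the settings for sites past the FDR, and the use of rows with an ID, which is the main choice itself. These could not move, so the tally does not measure robustness. No paired analysis was possible because each group has 1 library.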
